A study of Mus musculus with 4 samples.

Results

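NF-kB is a family of transcription factors that T cells switch on through the antigen receptor, costimulatory receptors of the TNF receptor family and interleukin 1 family receptors. The 10 genes described here encode its 5 DNA-binding subunits (Nfkb1, Nfkb2, Rel, Rela and Relb) and 5 proteins that restrain or redirect it (Nfkbia, Nfkbie, Nfkbiz, Tnfaip3 and Bcl3). They were taken by symbol from the table of raw counts, where all 10 have an entry among 24061 genes, and all 10 passed the filter on low counts that left 13022 genes for testing. In these libraries the messages of the atypical IkB proteins Nfkbiz and Bcl3 were lower in the pair of libraries that hold almost no Maf message, 1.5-fold and 1.41-fold. None of the 5 subunits passed the test, which called 1.81% of all genes tested, so no call among 5 genes is near that share. Nfkbia, Tnfaip3, Rela and Relb had lower values in both libraries with almost no Maf message without passing the test. The same split in the lower direction was seen in 22.5% of all genes tested. Nfkb1, Nfkb2, Rel and Nfkbie overlapped between the pairs.

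RNA was sequenced from 4 libraries of effector regulatory T cells, which are Foxp3-expressing CD4 T cells with the activated CD62L- phenotype, sorted from the Peyer's patches of the mouse gut. Both libraries labelled flox (flox 2 and flox 1) came from mice labelled Mafflox/floxFoxP3-YFP-cre, whose Maf alleles can be cut by Cre, and both labelled wt (wt 2 and wt 1) from mice labelled Maf+/+FoxP3-YFP-cre. All 4 share the Cre, which carries a yellow fluorescent protein and is driven from Foxp3, a C57BL/6 background backcrossed for 5 generations and an age of 13 weeks. The study's title names its question, the c-Maf dependence of transcripts in these cells, where c-Maf is the transcription factor encoded by Maf. About 40000 cells were sorted. The labels do not say whether the libraries came from separate animals or pools, so every p-value here rests on the spread between these 4 samples, which may be technical.

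The targeted gene went against 2 of the labels. Maf had 15 counts in the library labelled flox 2, 40 in wt 2, 2975 in flox 1 and 3071 in wt 1, which is 0.725, 1.98, 122 and 149 CPM (counts scaled to a common library size of 1000000). Maf was thus low in both libraries numbered 2 and high in both numbered 1, whatever the genotype label. The primary comparison below sets the libraries numbered 2 against those numbered 1, as the numbers stand in their titles, and it is a comparison of numbers and of measured Maf level, not of genotypes. The comparison by genotype label follows it. Gene counts summed to between 19368745 and 24687897 per library, and the 10 genes had from 1806 to 112906 counts, so counting error was small for all of them. The lineage marker Foxp3 had 104 CPM in flox 2, 103.5 in wt 2, 91.0 in flox 1 and 93.8 in wt 1, and Cd4 had 920 to 998 CPM, so both defining markers of the sorted cells were present in all 4.

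In resting cells IkB proteins such as IkBa (Nfkbia) and IkBe (Nfkbie) hold NF-kB dimers in the cytoplasm. When a receptor fires, the IKK kinase marks these inhibitors for destruction, the dimers enter the nucleus, and among the genes they switch on are those of their own inhibitors, so that the response limits itself. A20, the product of Tnfaip3, cuts and edits the ubiquitin chains that carry the signal upstream of IKK, whereas IkBz (Nfkbiz) and BCL-3 (Bcl3) work inside the nucleus on p50 (Nfkb1) or p52 (Nfkb2) dimers. In regulatory T cells Rel is known for its part in switching on Foxp3 during development, and Rel and Rela for the upkeep of the effector state.

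The promoters of these genes were searched for NF-kB sites. RefSeq windows from 250 bases before to 50 bases after the gene start, on the build GRCm38.p6 (mm10), were used for 7 of the 10 genes (Bcl3, Tnfaip3, Nfkbia, Rel, Nfkbie, Nfkb2 and Rela; 10 windows in all). Matches to the NF-kB consensus called the kB site, searched on both strands with overlapping matches merged, occurred in 6 of the 7 genes, against 9.6% of 27025 genes with a window. By window it was 8 of 10, against 8.5% of all 32851 windows, where 2 of the Nfkb2 windows overlap and share a match. Bcl3 is shown because it fell, and Nfkbia and Tnfaip3 because they are the most abundant of the 10 per length. Each sequence is 5' to 3' on the gene's own strand, with kB matches in capitals, for Bcl3 at chr7:19822706-19823005 (minus strand), Nfkbia at chr12:55492598-55492897 (minus strand) and the upstream Tnfaip3 window at chr10:19015361-19015660 (minus strand).
Bcl3: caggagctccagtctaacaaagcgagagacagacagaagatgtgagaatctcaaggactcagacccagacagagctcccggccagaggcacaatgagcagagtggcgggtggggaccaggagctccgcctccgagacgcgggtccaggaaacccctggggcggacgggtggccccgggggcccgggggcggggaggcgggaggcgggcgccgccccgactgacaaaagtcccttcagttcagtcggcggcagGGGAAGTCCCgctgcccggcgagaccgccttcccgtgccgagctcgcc
Nfkbia: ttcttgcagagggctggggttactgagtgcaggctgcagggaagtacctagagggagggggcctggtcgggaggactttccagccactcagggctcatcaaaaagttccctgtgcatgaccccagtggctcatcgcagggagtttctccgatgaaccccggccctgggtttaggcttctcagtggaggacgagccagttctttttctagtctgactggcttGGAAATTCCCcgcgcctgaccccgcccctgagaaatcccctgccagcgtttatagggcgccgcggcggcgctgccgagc
Tnfaip3: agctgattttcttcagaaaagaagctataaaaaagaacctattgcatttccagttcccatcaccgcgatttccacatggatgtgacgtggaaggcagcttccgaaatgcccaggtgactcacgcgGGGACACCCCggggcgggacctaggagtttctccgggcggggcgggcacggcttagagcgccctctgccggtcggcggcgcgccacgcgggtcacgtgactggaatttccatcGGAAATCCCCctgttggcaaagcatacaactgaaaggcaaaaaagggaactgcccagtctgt

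Counted from 1 at the 5' end of the window, with the gene start at base 251, the kB match of Bcl3 lies at bases 253 to 262, just inside the transcript, and that of Nfkbia at bases 222 to 231. Tnfaip3 holds kB matches at bases 126 to 135 and at bases 239 to 248. The kB matches of the other genes, shown to compare their letters with those above, are at bases 159 to 169 of the Rel window (chr11:23770920-23771219, minus strand), at bases 145 to 154 of the Nfkbie window (chr17:45555450-45555749, plus strand) and at bases 212 to 222 and 240 to 249 of the first Nfkb2 window (chr19:46304487-46304786, plus strand).
Rel: GGGAAATCCCC
Nfkbie: GGGGGATTCC
Nfkb2, first match: GGGAATTCCCC
Nfkb2, second match: GGGGCTTTCC

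The Rela window held no kB match. The half-site of MAF proteins, TGCTGA, was found on either strand in 1 of the 10 windows, the downstream window of Tnfaip3, against 19.5% of all windows. The AP-1 core TGANTCA was found in 3 of the 10, namely in the upstream Tnfaip3 window, the Nfkbie window and a downstream Nfkb2 window, against 7.8% of all windows. These matches describe the letters of short windows only. Bcl3 with the lower message and Rel with overlapping values both hold a kB match. Nfkbiz, which also passed the test, was not among the 7 genes with a window. With Bcl3 the only searched gene that passed, and matches in 6 of the 7, these windows cannot show whether a match goes with passing.

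Per kilobase of merged exon, the inhibitors Nfkbia and Tnfaip3 were the most abundant of the 10 messages. Nfkbia averaged 651 CPM per kb over the 4 libraries and Tnfaip3 556, ranks 24 and 33 among 12382 tested genes with an annotated length, and their ranges over the libraries overlapped. Nfkbiz followed with 157 CPM per kb, then Rela with 90.0, Bcl3 with 69.3, Nfkb2 with 57.3 and Nfkbie with 55.5. The ranges of Bcl3 and Nfkb2 overlapped, as did those of Nfkb2 and Nfkbie, so their order is not set by these data. Relb with 36.4, Rel with 24.3 and Nfkb1 with 9.22 CPM per kb made up the lower end, and their ranges did not overlap each other. By this measure Rela, which encodes the p65 subunit with its own activation domain, was the most abundant subunit message and Nfkb1, which encodes p105 and p50, the least abundant. The merged length joins the exons of all annotated transcripts, 12061 bases for Nfkb1 and 7466 for Rel, and the order depends on it. Without division by length, Nfkb1 with 87.3 to 127 CPM overlapped Rel with 118 to 219. Tnfaip3 alone took 0.410%, 0.279%, 0.457% and 0.453% of all gene counts in flox 2, wt 2, flox 1 and wt 1.

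**Figure D1:**
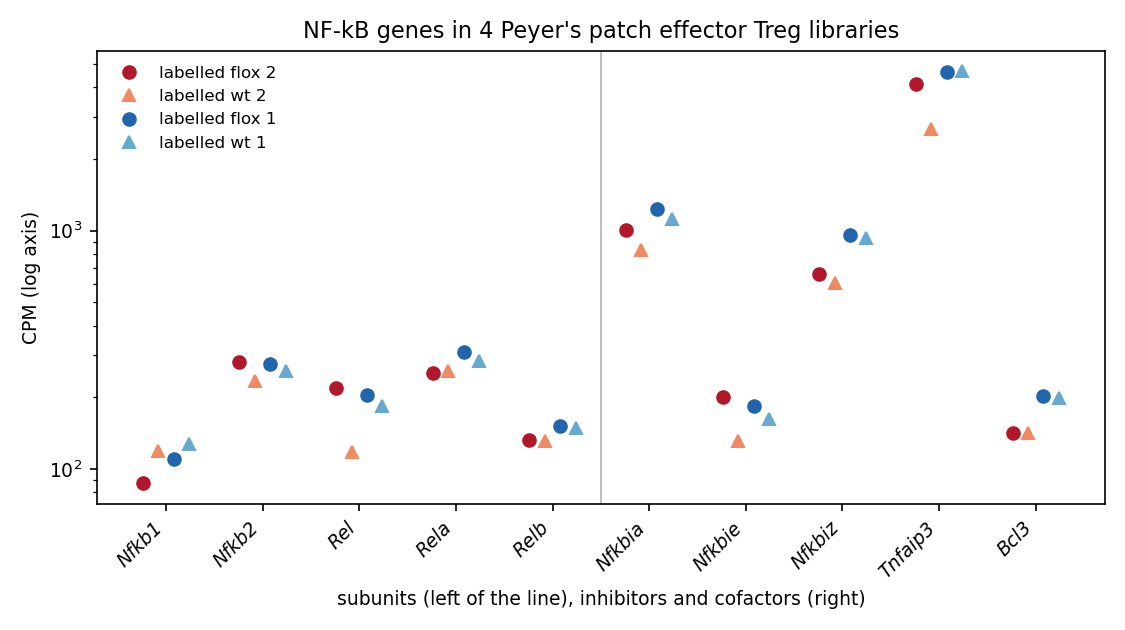
Abundance of the 10 NF-kB messages in CPM on a log axis, with 1 point per library in the order flox 2, wt 2, flox 1, wt 1 for each gene. Subunits are left of the line, and inhibitors and cofactors right of it. Nfkbiz (658 and 606 CPM in flox 2 and wt 2, 962 and 928 in flox 1 and wt 1) and Bcl3 separate by number, whereas wt 2 lies well below the other 3 libraries for Rel and Tnfaip3.

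Nfkbiz, on chromosome 16 (mm10, bases 55811375 to 55838899, minus strand), encodes IkBz, a nuclear cofactor that is itself induced quickly by NF-kB and is known for its part in transcription of secondary response genes. Its level was 658 CPM in flox 2 and 606 in wt 2, against 962 in flox 1 and 928 in wt 1. Both libraries numbered 2 lay below both numbered 1, with means of 632 ± 37.1 CPM in the libraries numbered 2 and 945 ± 24.1 CPM in those numbered 1 (SD, n = 2 each). The message was 1.5-fold lower, a log2 fold change of -0.58 with a standard error of 0.08 (adjusted p = 0.0242, edgeR quasi-likelihood test with Benjamini-Hochberg adjustment over all genes tested). As these are bulk samples, fewer cells that express a gene and less RNA per cell cannot be told apart, here and below.

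Bcl3, on chromosome 7 (bases 19808462 to 19822770, minus strand), encodes BCL-3, a nuclear IkB protein that binds p50 and p52 homodimers and can either repress or activate. It had 142 CPM in each of flox 2 and wt 2, against 202 in flox 1 and 199.6 in wt 1. The values agree closely within each number and stand apart between numbers, with means of 142 ± 0.315 CPM in the libraries numbered 2 and 201 ± 1.53 CPM in those numbered 1 (SD, n = 2 each). The message was 1.41-fold lower, with a log2 fold change of -0.50 and a standard error of 0.08 (adjusted p = 0.0375, edgeR quasi-likelihood test with Benjamini-Hochberg adjustment). The annotated antisense transcripts Gm16175 and Gm16174 overlap Bcl3 and have no entry of their own in the table, and whether counting used strand is not given in the sources used here, so their reads cannot be told apart from those of Bcl3.

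These were the 2 genes of the 10 that passed, both lower, where 1.41% of all 13022 genes tested were called lower and 1.81% were called in either direction (52 higher and 184 lower). Among the 2234 genes at least as abundant as Nfkb1, the least abundant of the 10 in mean log2 CPM, 2.78% were called lower. In the deposited normalised table the authors' values gave the same separation, with 14061 and 12993 for Nfkbiz in flox 2 and wt 2 against 20715 and 19750 in flox 1 and wt 1. For Bcl3 the authors' deposited values were 3033 in flox 2 and 3055 in wt 2, against 4344 in flox 1 and 4248 in wt 1. The deposited values match ones recomputed from these same counts with the libraries grouped by number, so they are no separate check. Both calls were lost when either library numbered 1 was left out. Without flox 1 the adjusted p of the edgeR quasi-likelihood test was 0.162 for Nfkbiz and 0.208 for Bcl3, and without wt 1 it was 0.190 and 0.265, at log2 fold changes between -0.49 and -0.60. With the genotype label as a block the adjusted p was 0.0407 for Nfkbiz and 0.0745 for Bcl3, so the count of called genes among the 10 fell to 1.

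**Figure D2:**
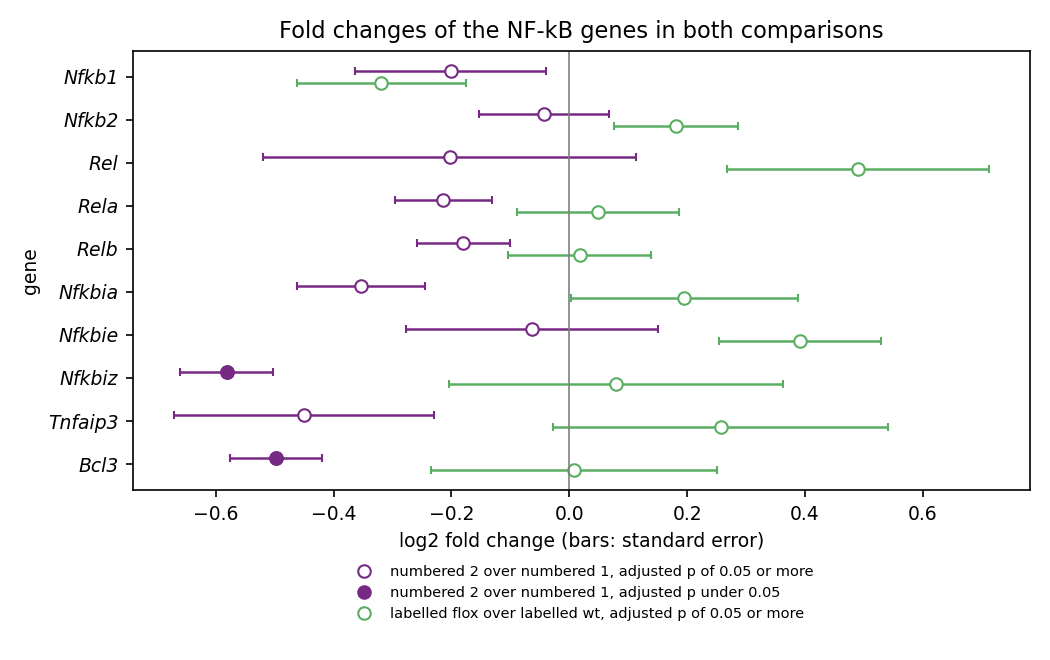
Log2 fold change of each NF-kB gene with bars of 1 standard error (edgeR quasi-likelihood fits), for libraries numbered 2 over those numbered 1 and for libraries labelled flox over those labelled wt, filled where the adjusted p is under 0.05. By number all 10 points lie below 0, from -0.04 for Nfkb2 to -0.58 for Nfkbiz, and Nfkbiz and Bcl3 are filled; by label no point is filled.

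The feedback inhibitors upstream of DNA binding did not pass. Nfkbia, on chromosome 12 (bases 55489410 to 55492647, minus strand), encodes IkBa, the inhibitor that is degraded and made again in each round of signalling. It had 1008 CPM in flox 2 and 833 in wt 2, against 1230 in flox 1 and 1121 in wt 1, groups that do not overlap. The log2 fold change was -0.35 with a standard error of 0.11 (unadjusted p = 0.016, adjusted p = 0.222, edgeR quasi-likelihood test with Benjamini-Hochberg adjustment). Tnfaip3, on chromosome 10 (bases 19000910 to 19015657, minus strand), had 4124 CPM in flox 2 and 2667 in wt 2, against 4625 in flox 1 and 4656 in wt 1. The library labelled wt 2 stood well below the other 3, and flox 2 lay only a little below the pair numbered 1. Its log2 fold change was -0.45 with a standard error of 0.22 (adjusted p = 0.496, same edgeR test). Nfkbie, on chromosome 17 (bases 45555703 to 45563169, plus strand), had 199.9 CPM in flox 2 and 131 in wt 2, against 184 in flox 1 and 162 in wt 1. Here flox 2 was the highest and wt 2 the lowest of the 4, so the groups overlap (log2 fold change -0.06, standard error 0.21). Without the library flox 2, which leaves wt 2 alone against both libraries numbered 1, Nfkbia and Tnfaip3 passed with adjusted p of 0.0233 and 0.000931 by the edgeR quasi-likelihood test, and Tnfaip3 had a log2 fold change of -0.80. Without wt 2, it had one of -0.17 (adjusted p = 0.246, same edgeR test), so its size moved with the inclusion of wt 2.

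None of the 5 subunits passed by the edgeR quasi-likelihood test, DESeq2, the exact test or limma-voom (1, 1, 0 and 1 of 5 at an unadjusted p under 0.05). Over all genes tested, the first of these called 1.81% and had 13.6% at an unadjusted p under 0.05. Rela, on chromosome 19 (bases 5637483 to 5648130, plus strand), had 254 CPM in flox 2 and 258 in wt 2, against 309 in flox 1 and 285 in wt 1. Relb, on chromosome 7 (bases 19606217 to 19629438, minus strand), partner of p52 in the slower noncanonical arm of the pathway, had 133 and 132 CPM in flox 2 and wt 2, against 151 and 149 in flox 1 and wt 1. In both genes the groups stand apart, by little. The log2 fold changes were -0.21 for Rela and -0.18 for Relb, each with a standard error of 0.08 (adjusted p = 0.332 and 0.397, edgeR quasi-likelihood test with Benjamini-Hochberg adjustment).

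The other 3 subunits overlapped between the numbers. Rel, on chromosome 11 (bases 23736847 to 23770970, minus strand), which encodes c-Rel, had 219 CPM in flox 2 and 118 in wt 2, against 205 in flox 1 and 183 in wt 1. As with Nfkbie, flox 2 was the highest library and wt 2 the lowest, and the log2 fold change of -0.20 had a standard error of 0.32 (adjusted p = 0.858, edgeR quasi-likelihood test). Without flox 2, Rel passed at a log2 fold change of -0.71 (adjusted p = 0.0138, same edgeR test), and without wt 2 the sign turned, at 0.18. Nfkb1, on chromosome 3 (bases 135584655 to 135691547, minus strand), had 87.3 CPM in flox 2 and 119 in wt 2, against 110 in flox 1 and 127 in wt 1, so its lowest library was flox 2 and not wt 2. Nfkb2, on chromosome 19 (bases 46304320 to 46312385, plus strand), whose p100 product is cut to p52, had 282 CPM in flox 2 and 235 in wt 2, against 276 in flox 1 and 257 in wt 1. It was the most even of the 10 genes between the numbers, with a log2 fold change of -0.04 and a standard error of 0.11 (adjusted p = 0.924, same edgeR test). The gene Psd overlaps Nfkb2 on the opposite strand, with 143 to 181 counts beside 4751 to 6727 for Nfkb2, and its reads cannot be told apart from those of Nfkb2 where they overlap.

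Across the 10 genes, the groups stood apart with the libraries numbered 2 lower in 6 (Rela, Relb, Nfkbia, Nfkbiz, Tnfaip3 and Bcl3) and higher in 0. Of all genes tested, 22.5% stood apart in the lower direction and 22.7% in the higher. The median log2 fold change was -0.21 over the 10 genes and 0.01 over all genes tested, and 4 of the 10 had an unadjusted p under 0.05 (1768 of all 13022). The library wt 2 was the lowest of the 4 in 7 genes and flox 2 in 3, so no gene had its lowest value in a library numbered 1. Per kilobase, the 5 subunits summed to 215 CPM per kb in flox 2, 195 in wt 2, 236 in flox 1 and 222 in wt 1. The 5 genes that restrain or redirect NF-kB summed to 1451 in flox 2, 1107 in wt 2, 1737 in flox 1 and 1659 in wt 1. This sum was carried mostly by Nfkbia and Tnfaip3. Its ratio to the subunit sum was 6.75 in flox 2 and 5.68 in wt 2, against 7.36 in flox 1 and 7.46 in wt 1, given as a description with no test. As the sum includes the nuclear cofactors Nfkbiz and Bcl3, the ratio is not a measure of restraint.

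Since each genotype label holds 1 library of each number, the libraries numbered 2 can be set against those numbered 1 within each label, as ratios of CPM with exact binomial 95% intervals that cover counting error only. Bcl3 had a ratio of 0.703 (0.672 to 0.736) for flox 2 over flox 1 and 0.713 (0.680 to 0.748) for wt 2 over wt 1, and Relb had 0.880 (0.837 to 0.925) in flox and 0.885 (0.840 to 0.933) in wt. The intervals of the 2 labels overlap in both genes. Nfkbiz had 0.684 (0.67 to 0.698) in flox and 0.652 (0.638 to 0.667) in wt. Tnfaip3 had 0.892 (0.884 to 0.900) in flox and 0.573 (0.567 to 0.579) in wt, far apart for counting error alone. Rel and Nfkbie lay on opposite sides of 1, with Rel at 1.07 (1.03 to 1.11) in flox and 0.645 (0.612 to 0.679) in wt, and Nfkbie at 1.088 (1.04 to 1.14) in flox and 0.809 (0.768 to 0.851) in wt. In flox the ratio was below 1 for 7 of 10 genes with a median of 0.851, and in wt for all 10 with a median of 0.776, where the medians over all tested genes were 0.999 in flox and 1.01 in wt. With 1 library behind each side of a ratio, the difference between labels has no replicate check.

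**Figure D3:**
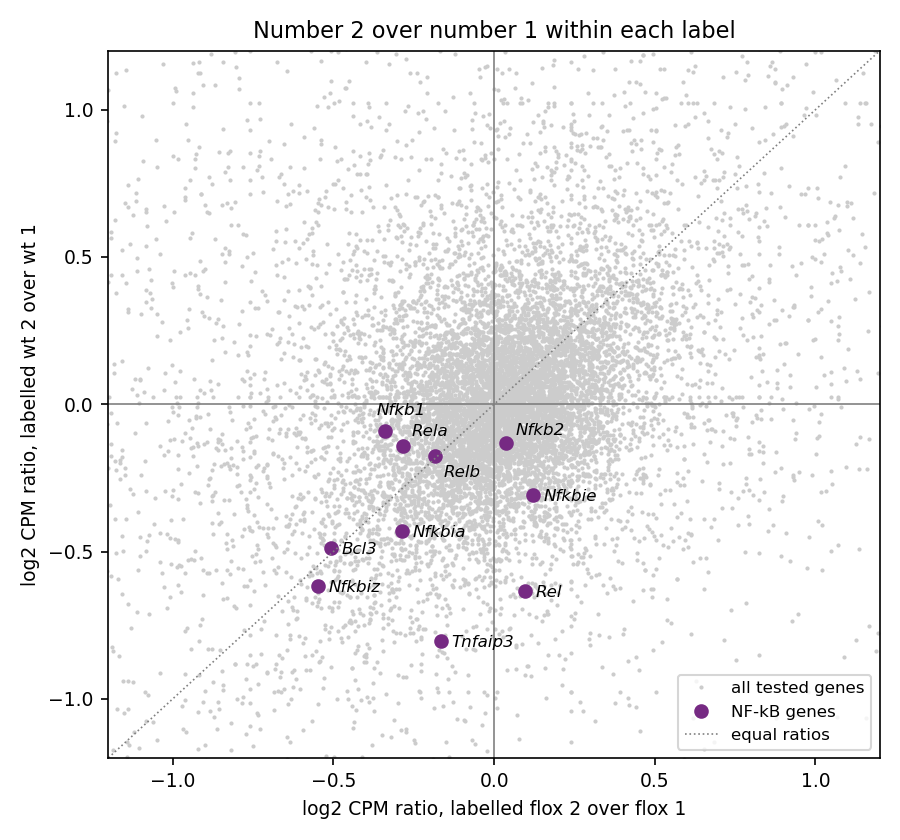
Log2 ratio of CPM for flox 2 over flox 1 (horizontal axis) and for wt 2 over wt 1 (vertical axis), with the 10 NF-kB genes as large points, all tested genes as small ones and a dotted line where both ratios are equal. Axes end at -1.2 and 1.2, and 1619 tested genes with counts in all libraries lie outside them. Bcl3 (-0.51 in flox and -0.49 in wt) and Relb lie near the dotted line, and Tnfaip3, Rel and Nfkbie lie below it.

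By genotype label, none of the 10 NF-kB genes was called by the edgeR quasi-likelihood test, where 0.00768% of all genes tested (1 gene) were called. Maf itself was not separated by the labels, with a log2 fold change of -0.30 and a standard error of 2.63 (adjusted p = 1, edgeR quasi-likelihood test), so this comparison does not set cells without Maf against cells with it. Nfkbie had the smallest unadjusted p of the 10, 0.0344 by the same edgeR test, at a log2 fold change of 0.39 with a standard error of 0.14. Its level was 199.9 and 184 CPM in flox 2 and flox 1, against 131 and 162 CPM in wt 2 and wt 1. Rel had 219 and 205 CPM in flox 2 and flox 1, against 118 and 183 in wt 2 and wt 1 (log2 fold change 0.49, standard error 0.22). Nfkb2 also lay higher in both flox libraries and Nfkb1 lower, so 4 of the 10 genes stood apart by label, against 27% of all genes tested. Bcl3, the most even gene within the numbers, averaged 172 ± 42.3 CPM in flox and 171 ± 40.5 in wt (SD, n = 2 each), a log2 fold change of 0.01 with a standard error of 0.24. By DESeq2, the edgeR exact test and limma-voom the labels also gave 0 calls among the 10 genes, with 2, 0 and 1 of them at an unadjusted p under 0.05. Of all 13022 genes tested, these called 12, 6 and 0, with 260, 236 and 262 at an unadjusted p under 0.05. With so few calls over all genes, none among 10 says little about them.

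Around these 10 genes, 104 others that carry, restrain or answer the NF-kB signal were listed by role, and 101 of them were tested. By number, the edgeR quasi-likelihood test called 3 lower and 1 higher, at a median log2 fold change of -0.06. The calls depend on the tool, with 11 lower and 2 higher by DESeq2, 10 lower and 2 higher by the exact test, and 2 lower and 0 higher by limma-voom. Over all 13022 genes tested DESeq2 called 447 lower and 188 higher, the exact test 431 and 192, and limma-voom 158 and 43. The quasi-likelihood test called 184 lower and 52 higher over the same genes. At an unadjusted p under 0.05 stood 30 of the 101, against 13.6% of all genes tested. The directions below are those of the quasi-likelihood test. Among 18 other inhibitors, 1 fell. This was Nfkbid, which encodes IkBNS, another atypical nuclear IkB known for its role in regulatory T cell development. It had 559 CPM in flox 2 and 467 in wt 2, against 1048 in flox 1 and 942 in wt 1, a log2 fold change of -0.96 with a standard error of 0.11 (adjusted p = 0.0143, edgeR quasi-likelihood test). The abundant ubiquitin-cutting enzyme Cyld had 344, 329, 328 and 354 CPM in flox 2, wt 2, flox 1 and wt 1, and the A20 partner Tax1bp1 404, 401, 404 and 429.

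Upstream, none of 20 genes for the IKK complex and its adaptors passed by the edgeR quasi-likelihood test, DESeq2, the exact test or limma-voom (3, 4, 4 and 4 of 20 at an unadjusted p under 0.05, where 13.6% of all genes tested were in the first of these tests). Ikbkb, the catalytic IKK subunit of the canonical arm, had 292 CPM in flox 2 and 281 in wt 2, against 221 in flox 1 and 249.6 in wt 1. Of the other abundant genes of this list, Rbck1, part of the linear ubiquitin ligase, had 314 CPM in both libraries numbered 2, against 276 and 288 in flox 1 and wt 1. The IKK-related kinase Ikbke had 144 CPM in flox 2 and 148 in wt 2, against 162 in flox 1 and 158 in wt 1.

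Among 19 receptors, Il1r1, the signalling receptor of interleukin 1, fell at a low level, with 0.822 CPM (17 counts) in flox 2 and 1.93 (39 counts) in wt 2, against 8.68 (212 counts) in flox 1 and 14.3 (295 counts) in wt 1 (log2 fold change -3.06, standard error 0.49, adjusted p = 0.0421, edgeR quasi-likelihood test). The most abundant, Tnfrsf1b (TNF receptor 2), had 1826 CPM in flox 2 and 1426 in wt 2, against 2086 in flox 1 and 1989 in wt 1 (adjusted p = 0.315, same edgeR test), and the costimulatory receptor Tnfrsf4 (OX40) had 594 to 825. Of 15 ligands 14 were tested, and Tnfsf10, which encodes TRAIL, rose, with 71.4 CPM in flox 2 and 74.9 in wt 2, against 41.3 in flox 1 and 48.4 in wt 1 (log2 fold change 0.71, standard error 0.12, adjusted p = 0.0451, same edgeR test). The ligands Ltb, with 814, 671, 576 and 616 CPM in flox 2, wt 2, flox 1 and wt 1, and Tnfsf8, with 346, 177, 195 and 210, did not pass. Of 32 genes known as NF-kB targets 30 were tested, of which 1 fell by the quasi-likelihood test and by limma-voom and 5 by each of DESeq2 and the exact test. DESeq2 and the exact test called 447 and 431 of all 13022 genes lower. The gene called by the quasi-likelihood test was Ccl20, the chemokine that draws CCR6-bearing cells, with 5.32 CPM in flox 2 and 5.93 in wt 2, against 85.4 in flox 1 and 86.4 in wt 1. It had a log2 fold change of -3.93 with a standard error of 0.13 (adjusted p = 0.000159, edgeR quasi-likelihood test). The more abundant targets Cd83 and Junb did not pass. Junb, an AP-1 subunit, had 7234 CPM in flox 2 and 5673 in wt 2, against 8193 in flox 1 and 8730 in wt 1. Cd83 had 2198 CPM in flox 2 and 1303 in wt 2, against 2730 in flox 1 and 2738 in wt 1, with wt 2 far below the other libraries, as in Tnfaip3 and Rel. Of these 4 called genes, Ccl20 passed without each library in turn. Without wt 1 the edgeR quasi-likelihood test gave adjusted p of 0.0694 for Nfkbid, 0.215 for Il1r1 and 0.147 for Tnfsf10, and without flox 1 it gave 0.0549 for Nfkbid and 0.233 for Tnfsf10. By limma-voom Il1r1 and Tnfsf10 missed the threshold, with adjusted p of 0.0856 and 0.0512. By label none of the 101 genes passed.

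**Figure D4:**
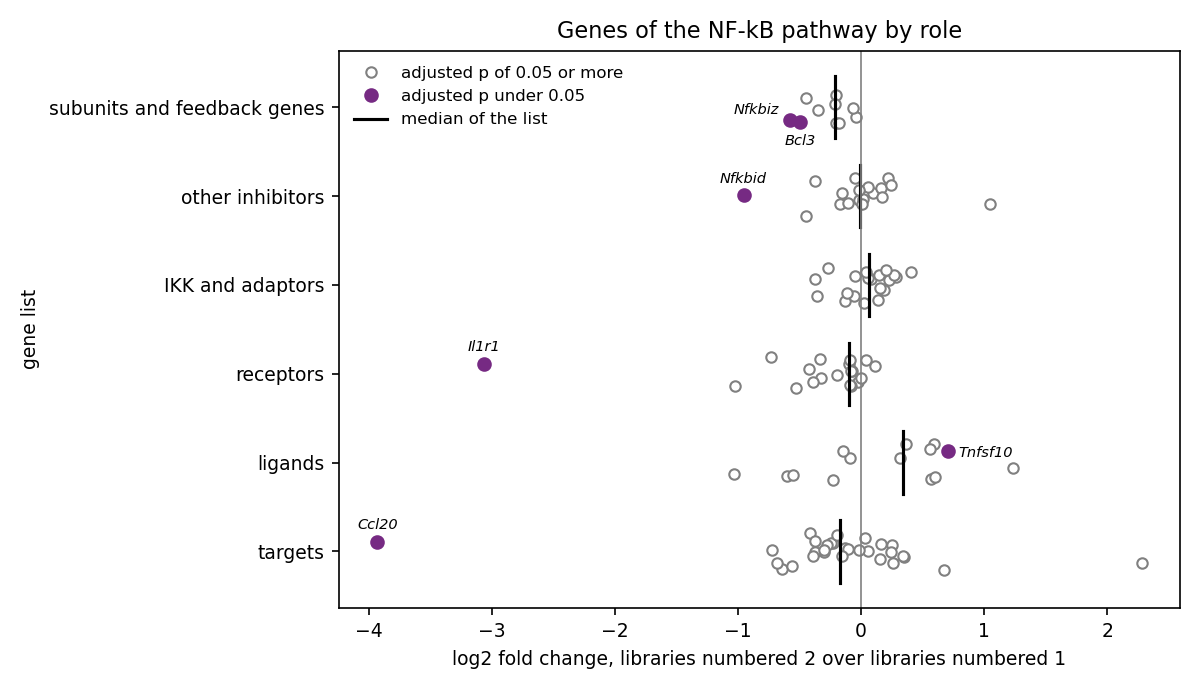
Log2 fold change of every tested gene of the NF-kB lists, libraries numbered 2 over libraries numbered 1, with 1 line of points per role, filled points for an adjusted p under 0.05 and a vertical bar at each list's median. The called genes are the labelled ones, of which Tnfsf10 at 0.71 alone lies above 0, and the lists spread around medians from -0.21 for the subunits and feedback genes to 0.34 for the ligands.

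Other groups of genes moved along the same split or within it. The 13 immediate early genes, which T cells switch on within minutes of stimulation or handling, summed to 8685 CPM in flox 2 and 7493 in wt 2, against 12944 in flox 1 and 12955 in wt 1. All 13 had a log2 fold change below 0, as had 6343 of all 13022 genes tested. DESeq2 called 8 of the 13 lower, the exact test 7, limma-voom 2 and the edgeR quasi-likelihood test 2. Of all 13022 genes tested, they called 447, 431, 158 and 184 lower in the same order, the last being 1.41%. The 2 called by the edgeR quasi-likelihood test were Egr2 (257 and 223 CPM in flox 2 and wt 2, against 420 and 419 in flox 1 and wt 1, adjusted p = 0.0149) and Nr4a1 (adjusted p = 0.00158). These sums split the libraries as Nfkbiz and Bcl3 do, and their part in the result was not tested. The 10 heat shock genes summed to 13296 CPM in flox 2, 4998 in wt 2, 5760 in flox 1 and 5073 in wt 1, so flox 2 stood apart. In flox 2, Nfkb2, Rel and Nfkbie were highest, and Nfkb1, Rela and Bcl3 lowest, with Rela and Bcl3 close to wt 2. The part of the heat shock difference in those values was not tested.

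Markers of other cells were present, the most abundant of them at a level near that of Foxp3. This was the epithelial marker Epcam, with 89.2 CPM in flox 2, 140 in wt 2, 91.9 in flox 1 and 75.8 in wt 1. Foxp3 had 104, 103.5, 91.0 and 93.8 CPM in the same order. B cell markers (11 of 12 in the table) summed to 69.8 CPM in flox 2, 86.6 in wt 2, 129 in flox 1 and 76.3 in wt 1, epithelial markers (12 of 12) to 339, 490, 471 and 206, and stromal and endothelial markers (6 of 6) to 67.1, 86.3, 80.7 and 75.6. Myeloid markers (11 of 12) summed to 57.3, 63.3, 102 and 12.7 CPM in the same order, and CD8 T and natural killer markers (7 of 7) to 102, 84.9, 61.7 and 55.1. No marker was at 0 in all 4 libraries, and at most 3 of a list were at 0 in any library. By gene, 9 of the 10 tested B cell markers had a log2 fold change below 0, as had 6343 of all 13022 genes tested, and their median was -0.99. In 4 of them both libraries numbered 2 lay below both numbered 1, the direction of Nfkbiz and Bcl3 and of 22.5% of all genes tested. None of the 10 was called by the edgeR quasi-likelihood test or limma-voom and 1 by each of DESeq2 and the exact test, and 2 had an unadjusted p under 0.05 by the first. Of the 5 sums, that of the CD8 T and natural killer markers alone separates the numbers, higher in those numbered 2. Much of that sum is its called gene Klrb1c, with 68.5 and 44.9 CPM in flox 2 and wt 2, against 21.3 and 22.6 in flox 1 and wt 1 (adjusted p = 0.0368, edgeR quasi-likelihood test). That test called 1.81% of all genes tested in either direction, and limma-voom called 0 genes of this list. Of the 6 tested genes of this list, 3 had a log2 fold change below 0, with a median of 0.06, so the list did not rise as a set. The part of other cells in the NF-kB values was not tested. The 6 markers of regulatory T cells all had counts in every library, and 1 of them fell, the inhibitory receptor Ctla4, with 2080 CPM in flox 2 and 1627 in wt 2, against 3344 in flox 1 and 3342 in wt 1 (adjusted p = 0.027, edgeR quasi-likelihood test). Of all genes tested, 1.41% were called lower by the same test.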

How the data were processed

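Raw counts by gene symbol, not normalized, were deposited by the authors for all 4 libraries. The submitters' processing notes name build mm10, edgeR 3.14, HTSeq 0.6.1 and TopHat2 2.1.1; for settings, annotation and strand the sources used here give nothing. The 5 counter summary entries, 66.6% to 67.2% of each column, entered neither library sizes nor tests, and 27 entries whose symbol had become a date were tested but are not named. The authors also deposited normalized values for 10618 entries, a signal that is never negative. Classic edgeR pseudo-counts recomputed with the libraries grouped by title number matched 100% of its 42472 entries to a relative error of 1e-06, and those grouped by labelled genotype matched 3.25%. Every deposited per-sample column was used.

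Groups are the genotypes and numbers of the titles. A separate replicate field gives 1 for both wt and 2 for both flox libraries and was not used, and no library was moved to another genotype. Tests used edgeR 4.0.16 in R 4.3.3 (filterByExpr, TMM, robust glmQLFit and glmQLFTest) on all 4 libraries, by number and by label, with Benjamini-Hochberg adjustment over 13022 genes and a threshold of 0.05. These main fits held no block. The spread in the test by number therefore includes the difference between labels, and that in the test by label the difference between numbers. Dividing each log2 fold change by the square root of its F gave the standard error, and CPM are per TMM-scaled library size. No exact permutation test was run, since with 2 libraries a side its smallest two-sided p is 0.333. Coordinates and exon lengths come from the GENCODE annotation of mm10, where 94.3% of entries matched by symbol, and promoters from RefSeq.

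The 10 genes and all gene lists were chosen with earlier results of these data known. Named genes are the 10, Maf, Foxp3, and of each pathway list up to 4 called genes per direction, filled to 3 with the most abundant. 1 further list is not reported here. Cd4, Ctla4, Epcam, Egr2, Nr4a1 and Klrb1c were named after their values were seen. Alternatives were DESeq2 1.42.0, limma-voom (limma 3.58.1), the edgeR exact test, other scalings and filters, a block and leaving out each library. The tests were first checked on simulated data.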

Additional observations from a re-analysis of the deposited data

Results flagged for a closer look

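Rel and Nfkbie moved in opposite directions between the numbers within the 2 genotype labels. The CPM ratio of Rel was 1.07 for flox 2 over flox 1 and 0.645 for wt 2 over wt 1. That of Nfkbie was 1.088 for flox 2 over flox 1 and 0.809 for wt 2 over wt 1. Each ratio compares 1 library with 1 library, and the difference between the labels was not tested.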

How the results depend on the processing

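By number, 236 genes were called, against 635 with DESeq2, 623 with the exact test, 589 with no filter beyond a count of 1, and 46 to 525 when 1 library was left out (46 without wt 1, 116 without flox 1, 504 without flox 2, 525 without wt 2). Of the 10 NF-kB genes 2 were called, against 1 with the genotype label as a block (Bcl3 lost), 1 with no scaling beyond total counts (Bcl3 lost, adjusted p = 0.0523, edgeR) and 0 to 5 without 1 library (0 without flox 1 or wt 1, 5 without flox 2). No scaling moved the median log2 fold change of all genes to 0.06, and Nfkb2 turned to 0.0084 under it. Without 1 library, log2 fold changes ran from -0.44 to 0.0096 for Nfkb1, -0.18 to 0.0879 for Nfkb2, -0.7123 to 0.1784 for Rel and -0.3996 to 0.215 for Nfkbie. The other 6 genes kept their direction under every alternative.

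By label, 1 gene was called, against 12 with DESeq2, 6 with the exact test, 2 with no filter, 0 with limma-voom (262 genes at an unadjusted p under 0.05) and 0 to 0 without 1 library. The replicate block (title numbers as pairs) gave 1 called gene and 0 of the 10 genes, 3 of them at an unadjusted p under 0.05. Same-numbered libraries deviated together with a correlation of 0.264, over 2 pairs only. Log2 fold changes without 1 library ran from -0.0984 to 0.1846 for Rela, -0.0757 to 0.1081 for Relb, -0.2192 to 0.4191 for Nfkbiz, -0.0845 to 0.7129 for Tnfaip3 and -0.2671 to 0.2707 for Bcl3, and with no scaling they were -0.0045 for Relb and -0.0094 for Bcl3. The cause of these changes was not tested. A lone library left in a group is assumed to vary like the others. The repeats for the called genes of the pathway lists were chosen after seeing the data.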
